A study of Mus musculus with 6 samples.

Results

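The clustered protocadherins are cell-surface proteins of the cadherin superfamily encoded by the Pcdha, Pcdhb and Pcdhg clusters, which lie one after the other on mouse chromosome 18. They were taken from the table of read counts by name alone, as every symbol beginning with Pcdha, Pcdhb or Pcdhg and not ending in -ps. This gave 57 of the 55453 listed symbols, namely 13 Pcdha, 22 Pcdhb and 22 Pcdhg genes, and no symbol with one of these beginnings ended in -ps. The family was selected on its log2 fold changes between knockout and wild type, which were already in view. The members' differences between the groups are therefore given as a description, without a p-value.

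The study measured poly(A) RNA in 6 libraries. Their source is labelled SB28, which is an established mouse glioma line, and carries the strain label C57BL/6. The genotype label is PP2A KO for 3 libraries, whose titles name PP2Ac (the catalytic part of the serine/threonine phosphatase PP2A), and Wild Type for the other 3. The design text of the series instead speaks of SB28 tumours grown under the skin or in the brain of wild-type and LysMcrePP2Acfl/fl mice and taken 18 days later. LysM-driven Cre deletes a floxed gene in myeloid host cells, so under that text the deletion would lie in the host and under the sample labels in SB28, and the labels do not settle which holds. How the knockout was made, whether it is 1 clone, and whether the libraries of a group came from separate cultures or animals is not given in the sources used here. Knockout and wild type are used below as the names of the labelled groups.

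Each clustered protocadherin has an extracellular region encoded by 1 large exon of its own, and a cell that carries a given set of them on its surface recognises cells with a matching set by homophilic binding. In neurons this underlies self-avoidance of dendrites and axons and the survival of interneurons. In the alpha and gamma clusters the large variable exon is spliced to constant exons that all members of the cluster share and that encode a common cytoplasmic end, whereas beta genes consist of their own exon and lack the constant part. Each variable exon has its own promoter. Promoters are chosen through looping between enhancer and promoter by CTCF and cohesin, and are kept silent by DNA methylation, by SMCHD1 and by H3K9 methylation. The C-type members, Pcdhac1, Pcdhac2, Pcdhgc3, Pcdhgc4 and Pcdhgc5, stand at the downstream end of their clusters and are regulated differently from the other members. In glioma and other tumours the clusters are known for gains of promoter methylation.

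Library totals ranged from 38735864 to 49344079 counts. Levels are in CPM, counts scaled to a library total of 1000000 and by TMM normalisation factors of 0.967 to 1.035, and are given as mean ± SD over n = 3 libraries. Ppp2ca, which encodes the alpha isoform of PP2Ac, measured 274, 244 and 247 CPM in wild type against 217, 187 and 193 CPM in knockout (log2 fold change -0.36, SE 0.08, edgeR adjusted p = 0.003774), so its RNA was lower but far from absent in the libraries labelled knockout. Reads outside a deleted part would still be counted. Of 17 glial and glioma markers, Vim, Nes, Pdgfra, Cd44 and Sox2 had counts in every library and Olig1, Olig2, Sox10 and Aqp4 had 0 in every library. Of the 11 tested, 4 rose, 6 fell and 1 did not pass an adjusted p of 0.05. The share called was 90.9%, against 64.0% of all genes tested. Cspg4 fell from 1164 wild-type counts to 16 (log2 fold change -6.05, edgeR adjusted p = 7.917e-08). Vim and Nes also fell and Sox9 rose (log2 fold changes -1.35, -1.16 and 1.94, edgeR adjusted p = 3.075e-07, 2.148e-06 and 2.033e-07). The myeloid markers Adgre1, Tyrobp, C1qa and C1qb were at 0 in all 6 libraries, and 11 of the 12 myeloid markers lay under 1 CPM. Their summed level was 3.35 to 3.73 CPM in wild type against 5.13 to 5.57 CPM in knockout, most of it Cd68. Lyz2, the gene of lysozyme M whose promoter drives LysM-Cre, had 0, 1 and 0 counts in wild type and 10, 18 and 16 in knockout (ratio 47.6, 95% counting interval 8.11 to 1921), under 1 CPM in every library, and Fcer1g had 16 counts in all against 37. Ptprc, Csf1r and Cx3cr1 of the same list went the other way, with 31, 23 and 7 wild-type counts against 11, 10 and 4. Csf1r and Cx3cr1 overlapped between the groups, and Ptprc did not. The 8 lymphocyte markers summed to at most 0.128 CPM. Of 12 neuron markers 7 lay under 1 CPM and Rbfox3 was at 0, and their sum was 23.8 to 25.5 CPM in wild type against 22.2 to 24.5 CPM in knockout. Within that list Snap25 and Syp fell and Nefm rose (log2 fold changes -3.17, -0.78 and 2.95, edgeR adjusted p = 4.695e-05, 0.01019 and 0.00027). Of its untested genes, Stmn2 had 27 wild-type counts against 0, and Gad1 had 1 and 56 (ratio 60.5, 95% counting interval 10.4 to 2434). With knockout set to a floor of 3 counts over the group, Stmn2 was 8.32-fold lower there, leaving out the counting error of its wild-type counts. The endothelial sum of 399.5 to 462 CPM over all libraries was mostly Cdh5, with Cldn5 at 0, while the scarcer Vwf and Kdr rose and Tek fell (log2 fold changes 3.12, 2.23 and -2.23, edgeR adjusted p = 4.244e-07, 2.331e-06 and 5.486e-05). The glial and glioma markers summed to 6838 to 6971 CPM in wild type and 4099 to 4213 in knockout, most of it Vim, and the part of these marker differences in the results below was not tested. The libraries numbered 1 stood somewhat apart from numbers 2 and 3 in both groups. The counts of members and the cluster sums are therefore also given without both of them. In bulk RNA, fewer cells that express a gene and less RNA per cell cannot be told apart.

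Most of the family's reads came from the gamma cluster in both groups, and the alpha cluster was close to silent. Summed over members, the gamma cluster stood at 273, 304 and 302 CPM in wild type against 366, 374 and 371 CPM in knockout. The beta cluster stood at 7.29, 8.12 and 7.10 CPM in wild type against 29.3, 31.0 and 28.9 CPM in knockout. The groups did not overlap in either cluster, and the beta sum differed far more than the gamma sum. The beta sum was 3.96-fold higher in knockout (7.50 ± 0.543 against 29.7 ± 1.10 CPM, log2 fold change 1.99, SE 0.09). The gamma sum was 1.26-fold higher (293 ± 17.4 against 370 ± 3.99 CPM, log2 fold change 0.34, SE 0.07). The alpha sum was only 12, 11 and 15 counts in wild type and 14, 15 and 20 counts in knockout, and with a log2 fold change of 0.47 (SE 0.32) and overlapping levels no difference was detectable at this depth.

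Of the 57 members, 48 had a count in some library and 9 had none, 8 of them alpha genes and the other Pcdhb1. A count of 0 among the 259535968 counts of all libraries allows a level of up to 0.01156 CPM before TMM scaling (3 counts), which covers counting error only. The count filter kept 33 members, of which 1 was alpha, 10 were beta and 22 were gamma, and the 24 left untested had at most 67 counts in all. A member could pass the filter through 1 group alone, so counts over the 33 describe the tested members and not the family. Among them 19 were higher in knockout, 6 were lower and 8 did not pass the threshold of an adjusted p of 0.05. Over all 14877 genes tested the same call was made for 64.0%, with 31.9% higher and 32.1% lower, so a call was common in these libraries. By the values themselves, the groups did not overlap for 20 members that were higher and 7 that were lower, against 33.9% and 34.4% of all genes and 68.3% in either direction. A difference of at least 2-fold was found for 15 members upward and 6 downward, against 11.1% and 10.9% of all genes. The median log2 fold change was 0.84 over the 33 tested members and -0.01 over all genes tested. Without both libraries numbered 1, 21 members were higher and 6 lower, the added calls being Pcdhb14 and Pcdhga2, and the log2 fold changes of the sums were 1.98 for beta, 0.30 for gamma and 0.50 for alpha. Since the family was picked with this contrast in view, nothing further is read from these shares.

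**Figure D1:**
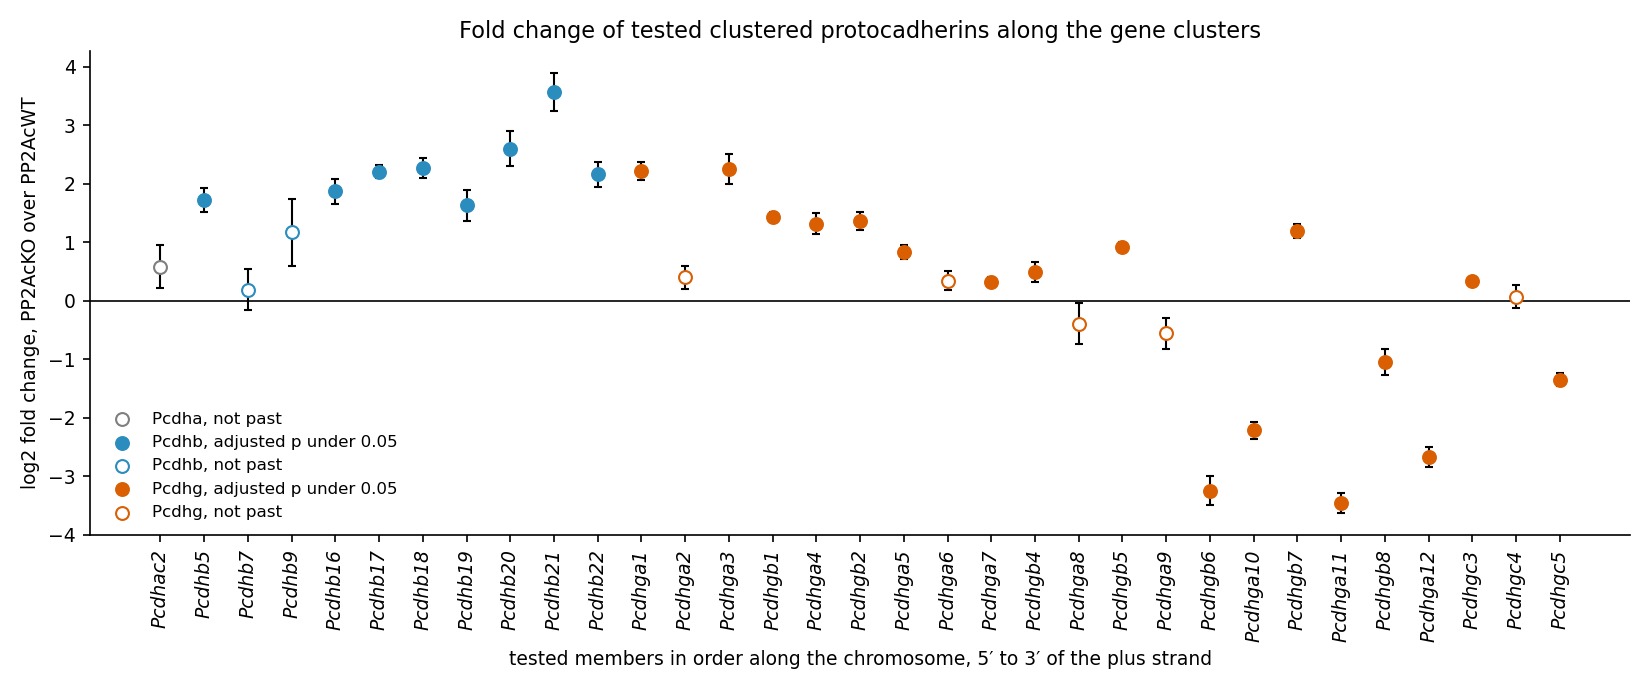
Log2 fold change of knockout over wild type (y axis, error bars ± 1 SE of the edgeR fit) for the 33 tested clustered protocadherins in their order along chromosome 18 (x axis), coloured by cluster and filled where the adjusted p was under 0.05. The last 7 beta genes and most early gamma genes lie above 0, and 6 of the 7 A- and B-type gamma genes nearest to the C-type genes lie below 0.

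The alpha cluster spans 36930184 to 37187661 on chromosome 18 in the GRCm38 build (GENCODE M21 annotation). Pcdhac2, a C-type member and the only alpha gene that was tested, measured 0.157, 0.204 and 0.277 CPM in wild type against 0.269, 0.244 and 0.434 CPM in knockout. The groups overlapped, and the log2 fold change of 0.58 (SE 0.37) did not pass the threshold. The other C-type member, Pcdhac1, had no count in any library. Pcdha12 had 4, 0 and 4 counts in wild type against 1, 0 and 0 in knockout, a ratio of knockout to wild type of 0.1352 with a 95% counting interval from 0.003046 to 1.008. Pcdha5 had 2 wild-type counts against 1 (ratio 0.5406, interval 0.009164 to 10.38). Both intervals hold a ratio of 1. Pcdha9 had 0 counts against 6, or 2.16-fold higher in knockout when wild type is set to the floor of 3 counts over the group. This leaves out the counting error of the 6 knockout counts. Pcdha11 had 0 counts against 2, both under that floor. Alpha genes also share the most with each other: 2860 exon bases belong to every member, and a median of 53.6% of a member's exon bases lies in exons of another gene on the same strand.

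The beta cluster spans 37264938 to 37524479 and has no exon base common to all members. Beta genes share at most 9.7% of their exon bases with another gene, so their counts can be read gene by gene, apart from stretches of near-identical sequence. A median of 3.5% and at most 12% of the 50-base stretches of a beta gene's own exons were found again in another gene. Of the 10 tested beta genes 8 were higher in knockout, none was lower and 2 did not pass, and their log2 fold changes ran from 0.19 to 3.57 with a median of 2.02. A beta gene could pass the filter through knockout alone, and Pcdhb9, Pcdhb20 and Pcdhb21 had only 16, 37 and 22 wild-type counts. The count of 8 and the median therefore describe the tested genes and not the cluster. The direction was the same along the downstream end of the cluster. The last 7 genes, Pcdhb16 to Pcdhb22, were all higher with a median log2 fold change of 2.21, whereas of the 15 genes upstream of them only 3 were tested and 1, Pcdhb5, was higher. The other 14 upstream genes together had only 145 counts in wild type against 217 in knockout, so low counts limit this contrast. The boundary before Pcdhb16 was chosen after the values were seen.

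Pcdhb17 had the highest CPM of the beta genes, at 1.59, 1.54 and 1.54 CPM in wild type against 6.83, 7.57 and 7.28 CPM in knockout. Its wild-type libraries lay close together (SD 0.0274 CPM) and all 3 knockout libraries lay far above them (log2 fold change 2.21, SE 0.11). Pcdhb16 was at 1.65, 0.907 and 0.906 CPM against 4.01, 4.10 and 4.80 CPM. Wild-type library 1 was its highest wild-type value and still lay below every knockout library (log2 fold change 1.87, SE 0.22). Pcdhb5, in the upstream part of the cluster, was at 0.842, 1.52 and 1.28 CPM against 4.10, 4.25 and 3.58 CPM (log2 fold change 1.72, SE 0.20). Pcdhb18 was at 0.960, 0.658 and 0.856 CPM against 4.41, 3.86 and 3.76 CPM (log2 fold change 2.27, SE 0.17). Pcdhb22, the last gene of the cluster, was at 0.685, 0.885 and 0.629 CPM against 3.05, 4.03 and 2.79 CPM (log2 fold change 2.16, SE 0.21). The groups of these 5 genes, which have the highest CPM of the cluster, did not overlap.

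The highest fold changes of the beta cluster belonged to genes that were scarce in wild type. Pcdhb21 measured 0.176, 0.227 and 0.0755 CPM in wild type against 2.35, 2.05 and 1.46 CPM in knockout, a total of 22 counts against 246 (log2 fold change 3.57, SE 0.33). Pcdhb20 was at 0.196, 0.408 and 0.227 CPM against 1.39, 2.05 and 1.61 CPM (log2 fold change 2.60, SE 0.30). Neither gene's groups came near each other, though the wild-type levels rest on few counts. Pcdhb19 had the lowest fold change among the last 7 genes, at 0.333, 0.658 and 0.504 CPM against 1.68, 1.22 and 1.69 CPM (log2 fold change 1.63, SE 0.27). Pcdhb7 overlapped between the groups, at 0.411, 0.227 and 0.302 CPM against 0.359, 0.244 and 0.485 CPM (log2 fold change 0.19, SE 0.35). Pcdhb9 had 1 count in wild-type library 1 and was at 0.0196, 0.227 and 0.126 CPM against 0.314, 0.244 and 0.256 CPM. Its groups did not overlap, but its log2 fold change of 1.17 (SE 0.57) did not pass the threshold, and it did pass without wild-type library 2 (log2 fold change 1.99). The 12 untested beta genes had between 0 and 67 counts each over all libraries, and Pcdhb14 was the highest of them with 20 counts in wild type and 47 in knockout.

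**Figure D2:**
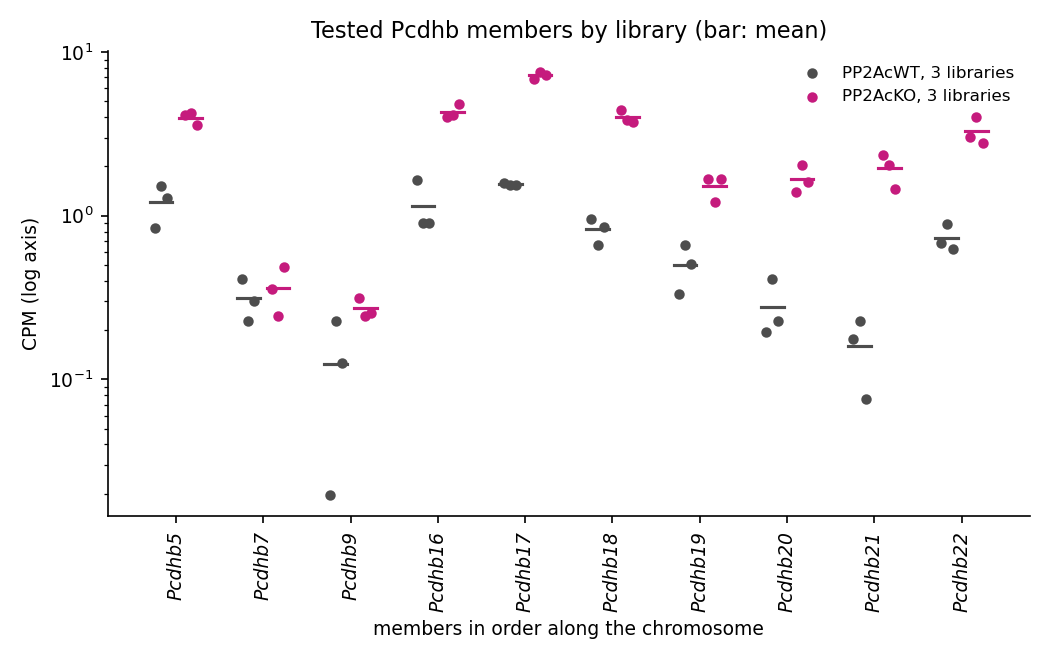
Level in CPM (y axis, log scale) of the 10 tested Pcdhb genes in cluster order (x axis), 1 point per library with wild type and knockout in separate colours. Pcdhb16 to Pcdhb22, Pcdhb5 and, narrowly, Pcdhb9 show 3 knockout points above all 3 wild-type points, while the points of Pcdhb7 overlap.

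The gamma cluster spans 37661793 to 37841873, and all of its 22 members passed the filter. Their transcripts end in the same constant exons: 2116 exon bases belong to every member, and between 31.5% and 66.8% of a member's exon bases lie in exons of another gene. Reads from the constant exons cannot be assigned to 1 member, and how such reads were counted is not given in the sources used here. Of the 22 members 11 were higher in knockout, 6 were lower and 5 did not pass, and log2 fold changes ran from -3.46 to 2.25 with a median of 0.34. By type, 5 of 12 A-type genes were higher and 3 lower, 5 of 7 B-type genes were higher and 2 lower, and of the 3 C-type genes 1 was higher and 1 lower. The A-type sum hardly moved, at 51.4 ± 3.26 CPM in wild type against 52.7 ± 2.12 CPM in knockout with overlapping libraries, while its members differed in both directions. The B-type sum was 2.09-fold higher in knockout (28.5 ± 0.869 against 59.6 ± 2.38 CPM).

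Pcdhgc3 was by far the most abundant clustered protocadherin. It measured 186, 207 and 205 CPM in wild type against 242, 255 and 256 CPM in knockout, with no overlap and a log2 fold change of 0.34 (SE 0.07). It held 67.8% to 68.0% of the gamma counts in wild type and 66.3% to 69.0% in knockout, so its share was about the same in both groups. Per kilobase of exon that it shares with no other gene, its level was 58.9 CPM in wild type against 74.4 CPM in knockout, first among all members in both. The next member per kilobase in wild type, Pcdhga7, was at 6.45 CPM. Pcdhgc5, the last gene of the cluster, went the other way: it measured 10.9, 12.9 and 13.2 CPM in wild type against 4.66, 5.10 and 4.73 CPM in knockout (log2 fold change -1.35, SE 0.11). Pcdhgc4, between these 2 genes, was at 1.35, 1.90 and 2.01 CPM against 1.59, 1.78 and 2.12 CPM, with overlapping groups and a log2 fold change of 0.07 (SE 0.20), whose sign turned to -0.02 when libraries were scaled by their totals only. Whether Pcdhgc4 differed from Pcdhgc3 in its fold change was not tested.

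Among the A- and B-type genes the direction went with the position in the cluster. The 12 genes nearest to the upstream end, Pcdhga1 to Pcdhgb5, comprised 9 that were higher, none that was lower and 3 that did not pass, and the median log2 fold change was 0.88. The 7 genes that follow, Pcdhga9 to Pcdhga12, comprised 5 that were lower, 1 that was higher and 1 that did not pass, with a median of -2.22. Summed, the first 12 genes were 1.90-fold higher in knockout (55.1 ± 2.90 against 104.7 ± 4.596 CPM). The following 7 fell from 23.2, 24.8 and 26.6 CPM in wild type to 7.42, 7.59 and 7.64 CPM in knockout. The boundary between these stretches was chosen after the values were seen, so no test was made of it.

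In the upstream stretch, Pcdhgb1 changed from the third to the second highest member per kilobase. It measured 11.03, 11.34 and 11.68 CPM in wild type against 31.6, 30.1 and 29.7 CPM in knockout (log2 fold change 1.43, SE 0.08), with every knockout library far above every wild-type library. A share of 16.8% of the 50-base stretches of its own exons also occurs in another Pcdhgb gene, the highest of the gamma cluster, so its count is less certain. Pcdhga1, the first gene of the cluster, was at 1.72, 2.22 and 1.76 CPM against 10.3, 8.05 and 8.13 CPM (log2 fold change 2.22, SE 0.15). Pcdhga3 was scarcer, at 0.411, 0.250 and 0.378 CPM against 1.99, 1.71 and 1.28 CPM (log2 fold change 2.25, SE 0.26). These 3 genes had the highest fold changes of the cluster. Pcdhgb5 was at 9.01, 9.34 and 9.82 CPM against 18.6, 17.8 and 16.8 CPM (log2 fold change 0.92, SE 0.09). Pcdhga7, the most abundant A-type gene, differed least among those that passed, at 18.5, 21.4 and 19.9 CPM against 25.2, 25.5 and 24.2 CPM (log2 fold change 0.32, SE 0.08). The call of Pcdhgb4, which has a log2 fold change of 0.49, was lost under 6 of the alternative settings, and Pcdhga6 (log2 fold change 0.34) passed only with the replicate number as a block or without knockout library 2.

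In the downstream stretch most genes were lower in knockout, several of them to a small part of their wild-type level. Pcdhga11 measured 8.56, 8.26 and 9.92 CPM in wild type against 0.941, 0.879 and 0.588 CPM in knockout, the lowest fold change of the family (log2 fold change -3.46, SE 0.17). It was the fourth highest member per kilobase in wild type, at 3.38 CPM, and ranked 24 in knockout, at 0.304 CPM. Pcdhgb6 was at 1.72, 2.18 and 1.91 CPM against 0.157, 0.171 and 0.281 CPM (log2 fold change -3.25, SE 0.25). Pcdhga12, the last A-type gene, was at 4.52, 5.81 and 5.54 CPM against 0.784, 0.757 and 0.945 CPM (log2 fold change -2.67, SE 0.17). Every knockout library of these 3 genes lay far below every wild-type library. Pcdhga10, chosen for its position after its values were seen, was at 5.48, 5.67 and 6.17 CPM against 1.008, 1.391 and 1.329 CPM (log2 fold change -2.22, SE 0.15). Pcdhgb8, which GENCODE lists as a polymorphic pseudogene, was at 0.842, 0.907 and 0.806 CPM against 0.403, 0.464 and 0.358 CPM (log2 fold change -1.05, SE 0.22). Pcdhgb7 lies between Pcdhga10 and Pcdhga11, starting at 37751600, with neighbours starting at 37746993 and 37755731, and it was the exception. It measured 1.61, 1.61 and 1.66 CPM in wild type against 3.74, 3.64 and 3.81 CPM in knockout (log2 fold change 1.20, SE 0.12), higher in every knockout library although the genes on both sides were lower. Pcdhgb7 and Pcdhgb8 were also chosen after their values were seen.

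**Figure D3:**
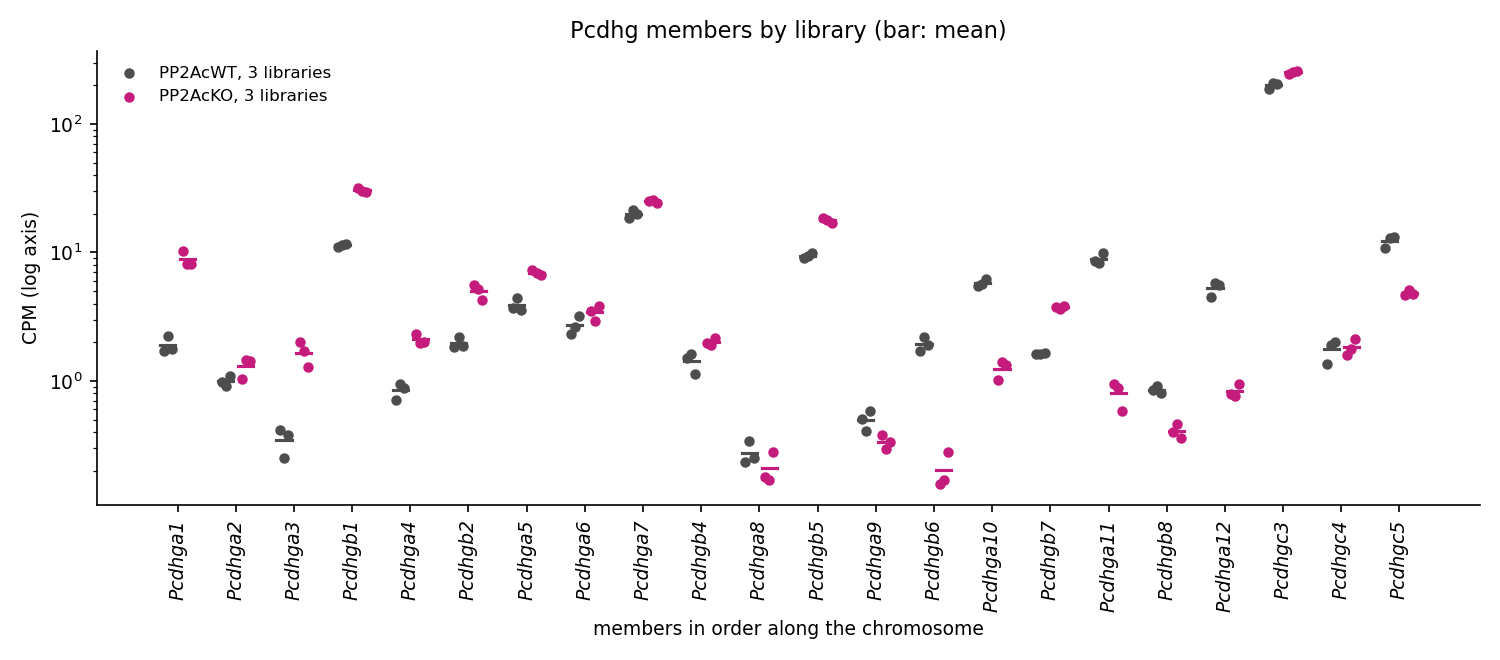
Level in CPM (y axis, log scale) of the 22 Pcdhg genes in cluster order (x axis), 1 point per library with wild type and knockout in separate colours. Knockout points lie above wild type for most genes up to Pcdhgb5 and for Pcdhgb7 and Pcdhgc3. They lie below for Pcdhga9, Pcdhgb6, Pcdhga10, Pcdhga11, Pcdhgb8, Pcdhga12 and Pcdhgc5.

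With Pcdhgc3 set aside, the makeup of the gamma RNA differed between the groups while its total was 1.265-fold higher in knockout. Pcdhga7 kept its share, at 21.2 ± 0.777% in wild type and 21.01 ± 0.547% in knockout. Pcdhgb1 made up 12.1 ± 0.487% in wild type and 25.6 ± 0.170% in knockout, and became the leading member. The share of Pcdhgb5 went from 9.998 ± 0.362% to 14.9 ± 0.274%, and that of Pcdhga1 from 2.02 ± 0.240% to 7.41 ± 0.830%. On the other side, Pcdhgc5 made up 13.1 ± 0.582% in wild type and 4.07 ± 0.270% in knockout. Pcdhga11 went from 9.49 ± 0.895% to 0.672 ± 0.140%, Pcdhga10 from 6.15 ± 0.280% to 1.05 ± 0.201% and Pcdhga12 from 5.61 ± 0.401% to 0.699 ± 0.106%. The libraries of a group lay close together, and the makeup varied little within a group.

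**Figure D4:**
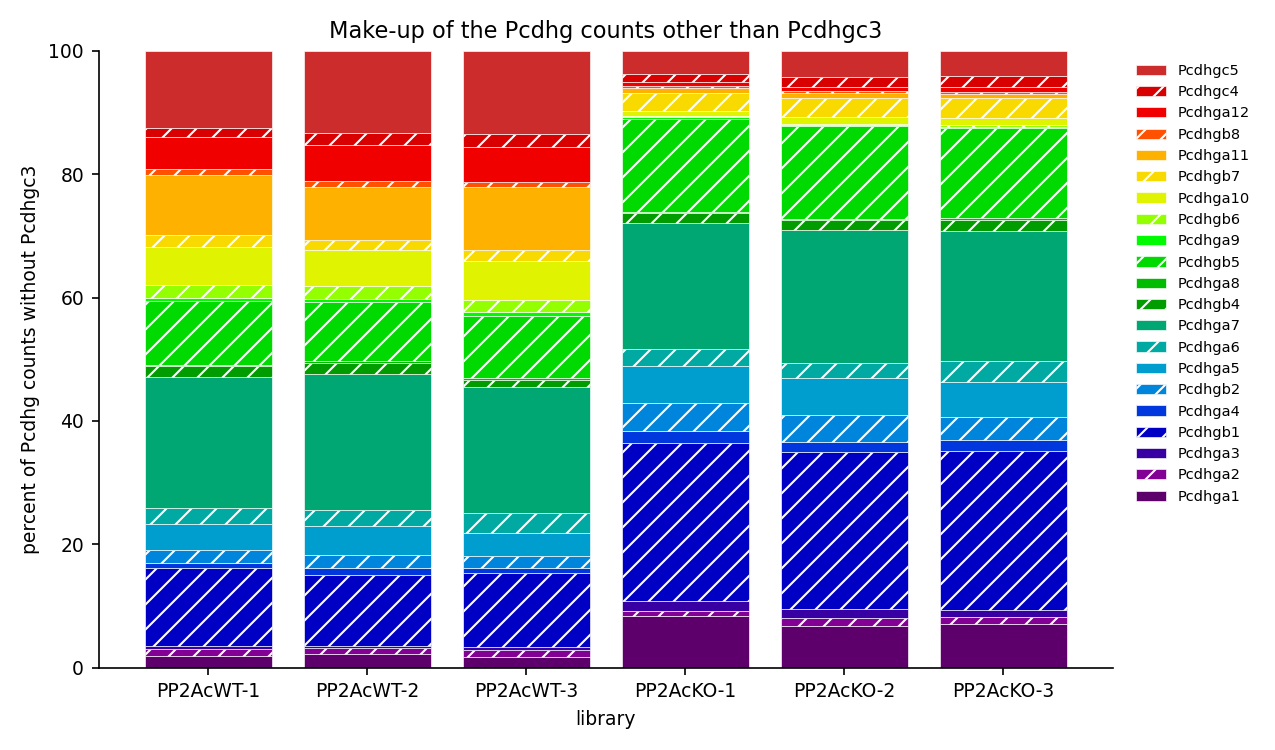
Share in percent (y axis) of each Pcdhg gene among the gamma counts without Pcdhgc3, as 1 stacked bar per library (x axis). In the knockout bars the Pcdhgb1 share is near 25.6% and the Pcdhga11 share under 1%, while the wild-type bars have these shares near 12.1% and 9.49%.

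Base composition of the members' own exons was described beside these outcomes. The GC content was 39.1% to 49% in the beta genes and 47.4% to 54.4% in the gamma genes. The ratio of observed to expected CpG had a median of 0.64 over the 6 gamma genes that were lower (range 0.33 to 0.73). It was 0.55 over the 11 that were higher (0.32 to 0.71) and 0.46 over the 5 that did not pass (0.38 to 0.53). The ranges of the higher and the lower genes overlap almost entirely.

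Other transcripts at the clusters bear on how the counts can be read. The constant gamma exons also belong to the annotated genes Gm37013, Gm37388, Gm42416 and Gm38182, which had 0 counts in all 6 libraries. All exon bases that Pcdhga10 alone holds on its strand lie under exons of Gm26672 on the opposite strand. The same holds for 52.4% of those of Pcdhga11, 29.7% of those of Pcdhgb7 and 9.3% of those of Pcdhga12. Reads over these bases can be assigned to 1 gene only if counted by strand, and the strand setting is not given. Pcdhga10 had 280, 250 and 245 counts in wild type, while Gm26672 had 5, 4 and 9 there and 0 in every knockout library. Most Pcdhga10 reads were therefore not also counted for Gm26672. BC037039, an antisense gene lying over 46.1% of the bases that only Pcdhgc3 holds, had 68, 77 and 67 counts in wild type against 296, 306 and 263 in knockout (1.59 ± 0.224 against 6.94 ± 0.459 CPM, log2 fold change 2.13, SE 0.14, edgeR adjusted p = 1.866e-06). It was named after its values were seen. Of 27 other annotated genes within the region, 16 had no count and 4 were tested. Among these Taf7, a subunit of the general transcription factor TFIID encoded between the beta and gamma clusters, rose (log2 fold change 0.79, SE 0.17, edgeR adjusted p = 0.002773).

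Of 17 genes that flank or lie between the clusters, 16 were tested, 6 rose, 4 fell and 6 did not pass, and the median log2 fold change was 0.11. The share called was 62.5%, close to that of all genes. Cd14, a co-receptor for lipopolysaccharide upstream of the alpha cluster, rose from 11.3 ± 0.997 to 49.4 ± 3.11 CPM (log2 change 2.13, SE 0.09, edgeR adjusted p = 1.841e-07). On the other side, Fchsd1 rose with a log2 fold change of 1.02 (SE 0.09) and Rell2 with 1.15 (SE 0.14), at edgeR adjusted p = 1.598e-05 and 0.0001055. Wdr55 fell by 0.53 (SE 0.08) on the log2 scale (edgeR adjusted p = 0.0005273).

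The genes known to shape or silence these clusters were followed as a list of 47 symbols, of which 45 were found and all 45 tested. In knockout 14 rose, 17 fell and 14 did not pass, with a median of -0.02 on the log2 scale. The share called was 68.89%, against 64.0% of all genes tested. Ctcf, which encodes the DNA-binding protein at these promoters and enhancers, measured 81.2, 72.7 and 71.0 CPM in wild type against 81.1, 71.3 and 72.4 CPM in knockout (log2 fold change 0.00, SE 0.08, edgeR adjusted p = 0.993). Its groups overlapped fully, and its log2 fold change stayed within 0.06 of 0 under the settings that turned its sign. The cohesin subunit genes did not move one way. Rad21 fell from 414 ± 37.9 to 281 ± 35.1 CPM (log2 change -0.56, SE 0.10, edgeR adjusted p = 0.001225) and Smc1a from 309 ± 20.6 to 226 ± 13.7 CPM (log2 fold change -0.45, edgeR adjusted p = 0.0007233). Smc3 was at 213 ± 24.1 and 176 ± 22.6 CPM and did not pass (edgeR adjusted p = 0.0524), but passed with the replicate number as a block (adjusted p = 2.453e-06). Stag2, named after its values were seen, rose with overlapping groups (log2 fold change 0.32, SE 0.12, edgeR adjusted p = 0.0416), and Stag1 did not pass (0.982). Wapl, which releases cohesin from DNA, rose from 169 ± 17.5 to 256 ± 32.5 CPM (log2 change 0.60, edgeR adjusted p = 0.001026). The cohesin loader gene Nipbl was at 161 ± 13.2 and 183 ± 27.5 CPM, with an edgeR adjusted p of 0.171, and of 0.0006999 with the block.

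On the silencing side, several genes of maintenance DNA methylation and of H3K9 methylation fell in knockout. Dnmt1, the maintenance methyltransferase, measured 267, 286 and 286 CPM in wild type against 133, 143 and 142 CPM in knockout (log2 fold change -1.01, SE 0.07, edgeR adjusted p = 2.053e-06). Uhrf1, which brings DNMT1 to hemimethylated DNA, fell from 166 ± 17.8 to 60.4 ± 6.58 CPM (log2 change -1.46, SE 0.11, edgeR adjusted p = 4.049e-06). The H3K9 methyltransferase gene Suv39h1 fell from 138 ± 1.59 to 42.0 ± 1.36 CPM (log2 change -1.72, SE 0.06, edgeR adjusted p = 7.276e-08), and Cbx5, which encodes heterochromatin protein HP1 alpha, fell from 465 ± 29.4 to 208 ± 24.7 CPM. In all 4 genes every knockout library lay below every wild-type library. Setdb1, another H3K9 methyltransferase gene, fell by less (log2 fold change -0.29, SE 0.06, edgeR adjusted p = 0.00363). Smchd1, a repressor of these clusters, fell from 144 ± 14.2 to 104 ± 16.5 CPM (log2 change -0.47, SE 0.12, edgeR adjusted p = 0.006864), and its partner gene Lrif1 rose from 12.6 ± 2.04 to 28.8 ± 8.16 CPM (log2 change 1.19, SE 0.20, edgeR adjusted p = 0.0006602).

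The de novo methyltransferase genes went the other way but less firmly. Dnmt3a rose from 38.3 ± 2.63 to 46.5 ± 2.80 CPM (log2 change 0.28, edgeR adjusted p = 0.01399), a call lost with library totals only (0.05744) and without knockout library 3 (0.05168). Dnmt3b was scarce, at 1.54 ± 0.206 and 2.04 ± 0.0374 CPM, and its edgeR adjusted p of 0.04274 did not hold under 9 of 14 alternatives, among them DESeq2 (0.07181) and every setting without 1 library other than wild-type library 1 (0.07367 to 0.1362). Wiz, a zinc-finger partner of H3K9 methyltransferases, rose with a log2 fold change of 0.35 (edgeR adjusted p = 0.01645), a call lost without knockout library 3 (0.06405). Rest, a repressor of neuronal genes that binds at the alpha cluster, rose from 117 ± 2.17 to 146 ± 0.759 CPM (log2 change 0.31, SE 0.06, edgeR adjusted p = 0.001394). Whether any of these differences bears on the protocadherin values was not tested.

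**Figure D5:**
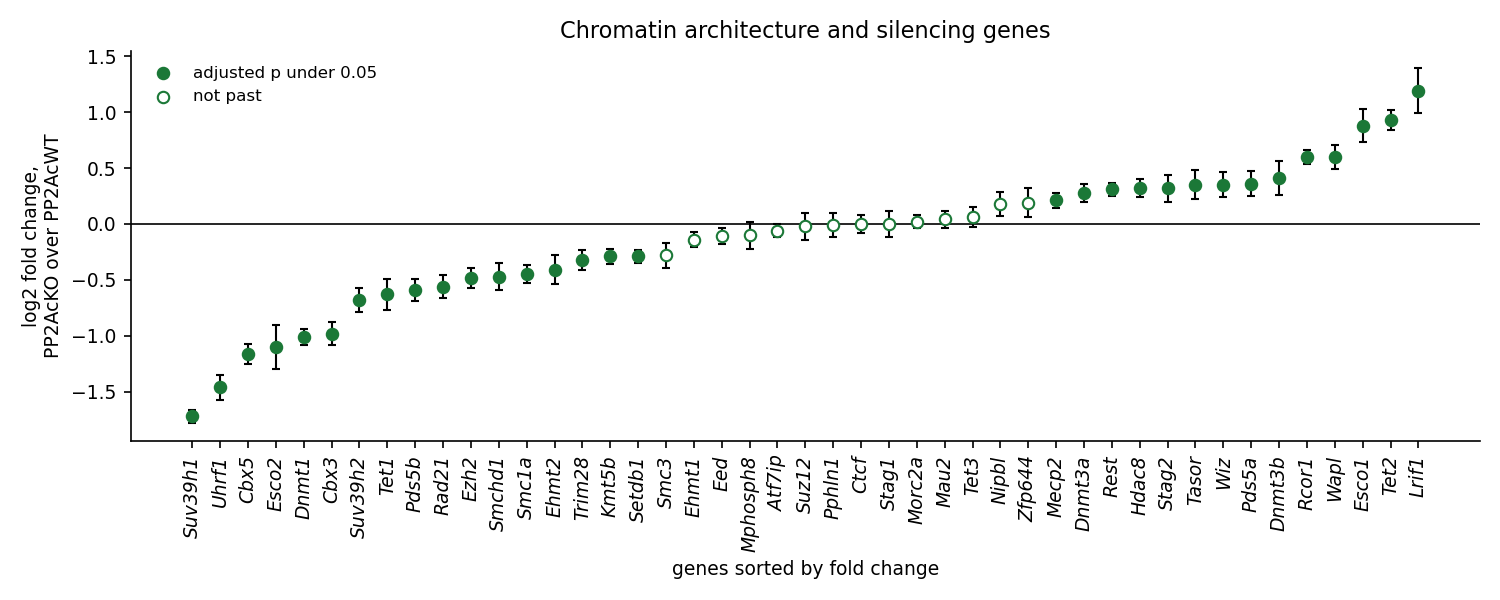
Log2 fold change of knockout over wild type (y axis, error bars ± 1 SE of the edgeR fit) for the 45 tested architecture and silencing genes sorted by fold change (x axis), filled where the adjusted p was under 0.05 and open where it was not. Suv39h1, Uhrf1, Cbx5 and Dnmt1 lie at or below -1, Ctcf at 0 and Lrif1 above 1.

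The list of partners through which clustered protocadherins signal, among them the WAVE complex, focal adhesion kinases and RET, had similar numbers rising and falling. Of 28 tested genes 9 rose, 10 fell and 9 did not pass, with a median of 0.02 on the log2 scale. The share called was 67.86%, against 64.0% of all genes tested. The focal adhesion kinase genes Ptk2 and Ptk2b both fell (log2 fold changes -0.45 and -0.92, edgeR adjusted p = 0.0001968 and 1.096e-05). Ret was not tested, with 27 wild-type counts against 15. Ptk2, Ptk2b and Ret were named after their values were seen. Wasf3, a WAVE subunit, had 491, 487 and 386 counts in wild type against 1, 1 and 0 in knockout, a ratio of 630.8 of wild type to knockout with a 95% counting interval from 174.3 to 5214. Cyfip2, another WAVE subunit, rose from 1.44 ± 0.0408 to 8.42 ± 0.624 CPM (log2 change 2.55, SE 0.12, edgeR adjusted p = 2.528e-07). Fyn, a kinase that binds protocadherin alpha proteins, rose from 47.6 ± 0.897 to 177 ± 0.956 CPM (log2 change 1.89, edgeR adjusted p = 3.734e-08). Gfra1, the GDNF co-receptor that works with RET, rose from 48.3 ± 0.587 to 97.9 ± 0.0501 CPM (log2 change 1.02, edgeR adjusted p = 1.157e-06).

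Protocadherins outside the clusters differed in both directions. Of 12 listed, 6 were tested, 1 rose, 4 fell and 1 did not pass, and the median log2 fold change was -1.30. The share called was 83.3% of these 6, against 64.0% of all genes tested. Pcdh19, an adhesion protein of the delta-2 group, fell from 458 ± 14.6 to 136 ± 8.72 CPM (log2 change -1.75, SE 0.07, edgeR adjusted p = 1.175e-07). Pcdh18 fell from 61.2 ± 3.57 to 17.7 ± 1.69 CPM and Pcdh9 from 4.66 ± 0.130 to 0.472 ± 0.0181 CPM (log2 changes -1.79 and -3.29, edgeR adjusted p = 4.449e-07 and 1.981e-07). Pcdh7, a delta-1 protocadherin, rose from 281 ± 11.3 to 680 ± 17.4 CPM (log2 change 1.28, SE 0.06, edgeR adjusted p = 3.864e-07).

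Among the larger cadherins, 8 Fat, Dachsous and Celsr genes were tested, 2 rose, 4 fell and 2 did not pass, and the median was -0.74. In this list 75% were called, against 64.0% of all genes tested. Dchs1, which pairs with FAT4 in planar polarity, fell from 58.8 ± 8.70 to 4.19 ± 0.708 CPM (log2 change -3.81, edgeR adjusted p = 1.193e-07) and Fat1 from 427 ± 35.7 to 179 ± 14.2 CPM (log2 fold change -1.26, edgeR adjusted p = 2.945e-06). Celsr2 fell by 1.91 on the log2 scale, while its relative Celsr3 had 11 counts in wild type against 205 in knockout (log2 fold change 4.29, SE 0.38, edgeR adjusted p = 1.275e-05). Of 13 tested classical cadherin and catenin genes, 2 rose, 7 fell and 4 did not pass, with a median of -0.71. The share called was 69.2%, close to the 64.0% of all genes tested. Jup, the gene of plakoglobin, fell from 145 ± 18.9 to 39.6 ± 5.64 CPM (edgeR adjusted p = 2.968e-06). Cdh11 and the neuronal catenin gene Ctnnd2 fell by 1.51 and 3.60 on the log2 scale (edgeR adjusted p = 9.493e-06 and 4.69e-07). Cdh13 fell from 104 ± 3.43 to 63.7 ± 1.33 CPM (edgeR adjusted p = 1.339e-05).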

How the data were processed

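The authors deposited a table of unnormalised counts by gene symbol with a column for each of 3 knockout and 3 wild-type libraries, and columns were matched by sample title (0 other columns). Per the submitters' processing notes, the genome builds were mm10 and GRCm38 and the tools, listed without roles, were limma 3.48.3, edgeR 3.34.0, HTSeq 0.11.2, STAR 2.7.1a and fastp 0.20.0. The annotation release, the strand setting and the handling of reads shared by genes were not given in the sources used here. Symbols were matched to GENCODE M21 (GRCm38), in which all 57 members were found and 1, Pcdha11, matched 2 genes. A level per kilobase divides CPM by the exon bases held by no other gene on the same strand. No sequence of the members is printed.

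The deposited counts were filtered with filterByExpr, scaled by TMM and compared between the groups with the quasi-likelihood test of edgeR 4.0.16 (R 4.3.3), with p-values adjusted by Benjamini and Hochberg's method across the 14877 tested genes and called at 0.05. Libraries varied by a common biological coefficient of variation of 0.096. The fit was tested on simulated data. Cluster sums replaced the members' rows in the same fit. Ratios against a group with 1 to 3 counts are given with a 95% exact counting interval. Counts carry no molecular identifiers, so intervals and floors cover counting error only. If the libraries of a group were not separate cultures, the p-values reflect only the scatter among these libraries, which may be technical.

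The members, the gene lists and the rule for named genes were chosen with earlier results of these data known. Named were the 5 most abundant members of each cluster, the C-type members and the 3 highest and 3 lowest fold changes of each cluster. From the lists 14 genes were named whatever their values, with up to 4 others by adjusted p. Same-numbered libraries deviated together from their group means (correlations across genes of 0.44, 0.16 and 0.15 for numbers 1, 2 and 3). Libraries 2 and 3 correlated as well across numbers (0.19 and 0.15), so pairing by number was not established. The main fit compared the groups without pairing, and the replicate block was run only as an alternative. Alternatives were RLE, upper-quartile and total scaling, DESeq2 1.42.0, other filters, the replicate block, leaving out each library, and leaving out both libraries numbered 1.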

Additional observations from a re-analysis of the deposited data

How the results depend on the processing

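The counts of members called higher (19) and lower (6) stayed at 18 to 21 and at 6 under every alternative run, and leaving out 1 library at a time gave 18 to 21 and 6. Without 1 library, the log2 fold change of the summed counts ran from 1.95 to 2.05 for Pcdhb, from 0.29 to 0.37 for Pcdhg and from 0.27 to 0.69 for Pcdha. With library totals only these were 1.90, 0.25 and 0.39, and all genes shifted by a median of -0.09. With the replicate number as a block, 20 members were higher and 6 lower (Pcdhga6 added), over all genes 5721 were higher and 5774 lower, and the sums gave 1.99, 0.34 and 0.46. The block changed no other member's call. Pcdhgb4 lost its call with upper-quartile factors, with library totals only and without wild-type library 1 or 3 or knockout library 2 or 3. Pcdhb14 passed without the low-count filter, and Pcdhb14 and Pcdhga2 passed without knockout library 1 or without both libraries numbered 1. Of 33 tested members 31 kept their sign in each setting that fitted them (28 were fitted with the 0.5 CPM filter, and Pcdhb9 was not fitted without both libraries numbered 1). Pcdhgc4 reversed with library totals only (-0.02), without wild-type library 1 (-0.10), without knockout library 3 (-0.05) and without both libraries numbered 1 (0.00), and Pcdhb7 without knockout library 3 (-0.06). Without 1 library at a time, Pcdhgc4 ran from -0.10 to 0.17 and Pcdhb7 from -0.06 to 0.45. Neither passed the threshold in any of these. Ctcf, at 0.00, took the other sign with RLE, DESeq2 and no filter (0.01 each), with the 0.5 CPM filter (0.00), without wild-type library 1 (0.06), without knockout library 2 (0.04) or 3 (0.03) and without both libraries numbered 1 (0.01), and Cdh5 with library totals only (-0.02). The cause of these changes was not tested. Depth limits the alpha cluster most: its sum was 11 to 20 counts per library, and it was not tested with the 0.5 CPM filter.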
